A study of Mus musculus with 12 samples.

Results

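The sodium-potassium pump (Na,K-ATPase) was followed here through 6 of its genes, those of the beta subunits Atp1b1, Atp1b2 and Atp1b3 and of the FXYD regulators Fxyd1, Fxyd6 and Fxyd7. Members were all probe sets whose array annotation gave one of these symbols alone, whatever their values. The 6 genes, of 18194 with a probe set of 1 symbol, had 11 of the 45101 probe sets, 5 for Atp1b1, 2 for Atp1b2 and 1 for each other gene. A probe set is a group of short probes that reads 1 transcript region. All 11 exceeded the array median on 3 or more arrays, and so were among the 26132 probe sets tested. The RNA came from lumbar spinal cord, from cells labelled astrocytes that had been collected by laser capture microdissection, about 1500 per mouse by the labels. The 4 groups were SOD1 G93A mice and their non-transgenic (NTg) littermates at 90 days (symptomatic) and at 120 days (late-stage), with 3 male mice and 3 arrays in each. SOD1 G93A mice carry human SOD1 with a mutation that causes familial ALS, as a transgene expressed throughout the body and not only in astrocytes. Backcrossing had put the line on the C57Bl/6 J Ola/Hsd background, and the labels name no treatment. No probe set of a mouse array is designed for the human transgene, so the genotype labels were not checked on it.

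The pump uses ATP to move sodium out of the cell and potassium in, and the gradients it makes drive the uptake of glutamate and the clearance of potassium by astrocytes. Its catalytic alpha subunit cannot fold or reach the membrane without a beta subunit, a glycoprotein that crosses the membrane once. FXYD proteins are small, tissue-restricted regulators that bind the assembled pump and tune its affinity for sodium and potassium. In the nervous system Atp1b1 is made mainly by neurons, and Atp1b2, also known as the adhesion molecule on glia, mainly by astrocytes.

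The deposited values were linear intensities, scaled on every array to a trimmed mean of 100. Levels below are these intensities. A log2 change is the difference of log2(intensity + 7) after quantile normalization within each age, SOD1 G93A minus NTg, given with its standard error (SE). The offset understates changes of dim probe sets. A probe set is said to rise or fall where limma's p, adjusted after Benjamini and Hochberg over all 26132 probe sets, was under 0.05. The labels name separate mice but not their litters, and with 3 arrays in a group the precision is limited. Array medians were 27.8 to 29.8 in SOD1 G93A and 24.9 to 30.4 in NTg mice at 90 days, and 38.8 to 55.2 against 27.9 to 37.1 at 120 days. The late-stage SOD1 G93A arrays were the least alike, with mean correlations to their own group of 0.835 to 0.88, against 0.914 to 0.952 in the other 3 groups. Ratios of the Gapdh control probe sets at the 3′ end over the 5′ end, a sign of RNA quality, overlapped between the genotypes at both ages.

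Markers of several cell types were measurable, which bears on every value below. All 11 astrocyte markers were tested, and in late-stage SOD1 G93A mice Gfap, Aldh1l1 and Sox9 rose, none fell and 8 did not pass. Of these 8, Gjb6 (-0.80), S100b (-0.60), Fgfr3 (-0.57) and Aldoc (-0.39) had negative log2 changes. Those of Aqp4, Gja1, Slc1a3 and Slc1a2 were positive. The summed intensity of the list was 17455 to 27393 in SOD1 G93A and 15551 to 18790 in NTg mice at 120 days. The sum of 12 neuron markers was 11048 to 18013 in SOD1 G93A and 24515 to 33013 in NTg mice at 120 days, with 5 of them lower by the test. At 90 days it was 21391 to 27386 against 28560 to 33451, and none passed. The sum of 10 microglia markers was 11467 to 12742 in SOD1 G93A and 2148 to 2480 in NTg mice at 120 days, with 7 of the 9 tested higher. At 90 days it was 9441 to 13322 against 3565 to 6087, with 1 higher. The sum of 7 oligodendrocyte markers was also higher on every late-stage SOD1 G93A array, at 36788 to 49124 against 23318 to 29686 in NTg mice, although no single one passed. The brightest of them, Mbp, read 18186 to 29553 in late-stage SOD1 G93A mice against 11516 to 14035 in NTg mice. Quantile normalization left Mbp without any difference between the genotypes at either age, so the test could not call it. Motor neuron and endothelial sums overlapped between the genotypes at both ages. No marker of these lists stayed below the offset of 7 on every array. In such material, fewer cells of a type and less RNA per cell cannot be told apart.

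In late-stage SOD1 G93A mice 1 probe set of Fxyd1 rose and 3 of the 5 of Atp1b1 fell. Fxyd1 was 4.57-fold higher than in NTg mice, and Atp1b1 was lower on these 3, by 1.86-fold to 2.46-fold. With the probe sets of each gene averaged, Fxyd1 alone of the 6 genes was called, where 1316 of all 12458 genes were. Atp1b1 then had a log2 change of -0.75 (SE 0.24, limma adjusted p = 0.0652). Its average holds all 5 probe sets, also the dimmest, which lay near the array medians. Of the 11 member probe sets 4 were called (36.4%), where 7.45% of all probe sets tested were called at this age, 3.6% higher and 3.86% lower. As 3 of these 4 read 1 gene, and the 6 genes were chosen with earlier results known, the members' share is not a test. The same 4 had an unadjusted p under 0.05, against 25.8% of all. Of the 1948 calls over all probe sets 48.3% were higher, but 19% of 3500 with median centring of the arrays, a scaling that moved the median of all log2 changes to -0.33 and called the same number of members. On 5 of 11 the SOD1 G93A arrays did not overlap the NTg arrays, against 32.4% of all probe sets (14% above and 18.5% below). At 90 days none of the 11 was called, where 0.138% of all were (0.115% higher, 0.023% lower). Of these, 2 had an unadjusted p under 0.05 (Fxyd1 and Fxyd7, against 5.61% of all), and 3 did not overlap, against 11.3% of all. The members' median log2 change was -0.13 at 90 days and -0.19 at 120 days, against -0.00 and -0.07 over all probe sets. The difference between the ages, fitted as an interaction, was called by limma for no member and no other probe set (0%). At an unadjusted p under 0.05 it held 3 member probe sets (Fxyd1 and 2 of Atp1b1) and 2414 in all, 9.24%.

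**Figure D1:**
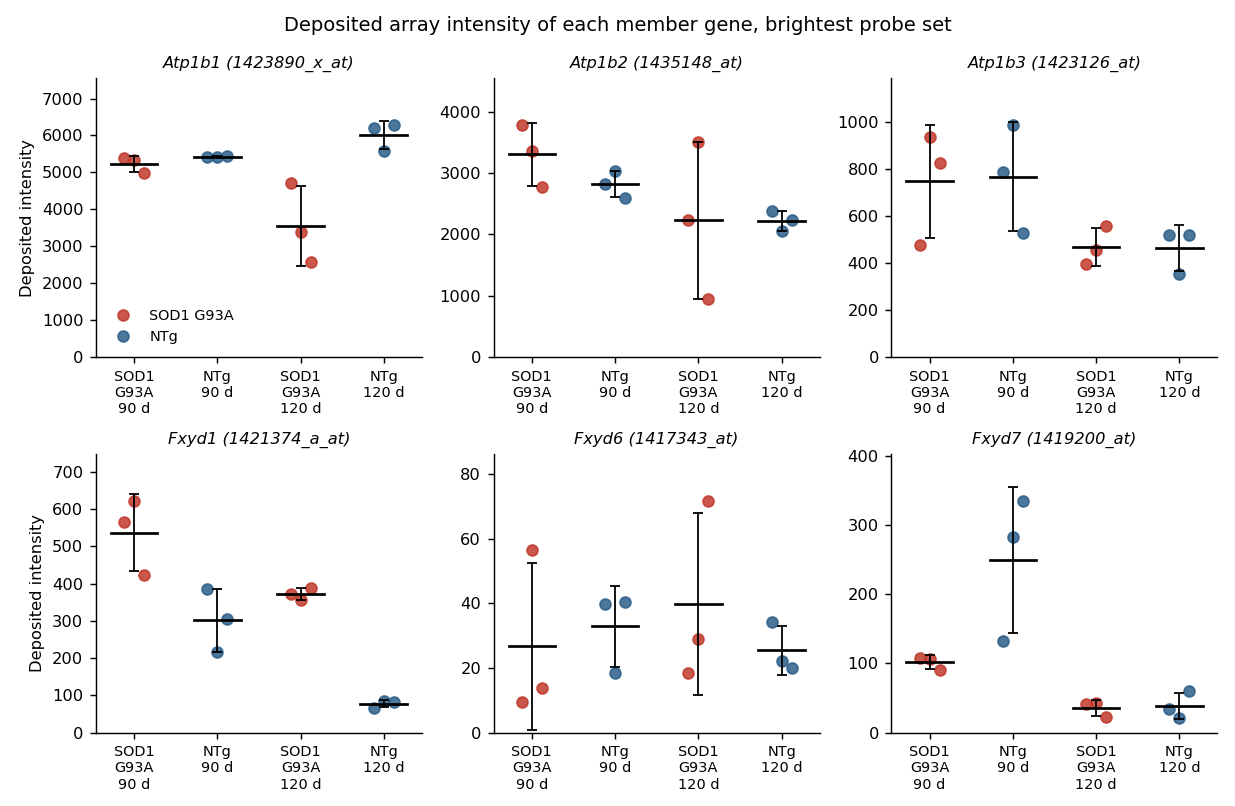
Deposited intensity (linear axis from 0) of the probe set with the highest mean signal for each of the 6 genes, in SOD1 G93A (red) and NTg (blue) mice at 90 and 120 days. Points are the 3 mice of a group, horizontal lines the mean and bars the SD. At 120 days the 3 SOD1 G93A mice lie above the 3 NTg mice for Fxyd1 and below them for Atp1b1. At 90 days they lie above them for Fxyd1, below them for Fxyd7 and, by a small margin, below them for Atp1b1.

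Fxyd1 and Atp1b1 moved in opposite directions at 120 days, so the 250 bases before the start site that RefSeq lists for each are shown. The windows are in GRCm38.p6 at chr7:31054854-31055103 for Fxyd1 and chr1:164458356-164458605 for Atp1b1, both on the minus strand, and are written 5′ to 3′ along the gene.
Fxyd1: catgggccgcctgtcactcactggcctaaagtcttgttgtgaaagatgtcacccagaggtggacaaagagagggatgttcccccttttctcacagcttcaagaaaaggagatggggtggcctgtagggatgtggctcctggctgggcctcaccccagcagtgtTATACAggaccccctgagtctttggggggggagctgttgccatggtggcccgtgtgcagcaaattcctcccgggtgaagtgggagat
Atp1b1: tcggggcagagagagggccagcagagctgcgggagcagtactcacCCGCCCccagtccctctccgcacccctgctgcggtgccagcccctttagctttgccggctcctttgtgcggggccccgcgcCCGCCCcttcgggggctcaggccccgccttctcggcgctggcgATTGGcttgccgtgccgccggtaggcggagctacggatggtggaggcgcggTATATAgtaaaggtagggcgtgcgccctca
Capitals mark matches, on either strand, to the 6 motifs searched, which were the GC box GGGCGG, the CCAAT box, the TATA motif TATANA, the STAT motif TTCNNNGAA, the AP-1 motif TGANTCA and the steroid receptor motif TGTTCT. The Atp1b1 window held 2 GC boxes, both read on the opposite strand as CCGCCC, 1 CCAAT box, also on the opposite strand, and 1 TATA motif starting 30 bases before the start site. The Fxyd1 window held only a TATA motif, starting 87 bases before the start site. Neither held a STAT, AP-1 or steroid receptor motif. Among all 32851 windows of this length, 32.7% held the GC box, 33.8% CCAAT, 22.6% the TATA motif, 7.02% the STAT, 6.75% the AP-1 and 16.1% the steroid receptor motif. GC content was 57.2% for Fxyd1 and 70.4% for Atp1b1, beside a median of 52.4%. Windows were at hand for 4 of the 6 genes, and Atp1b2 and Fxyd7 were not matched. A match is a string of letters and no evidence that a factor binds there.

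Atp1b1 encodes the beta subunit found most widely in the body. Its probe set with the highest mean signal, 1423890_x_at, read 4718.8, 3378.3 and 2570.8 in late-stage SOD1 G93A mice, against 6196, 5590.9 and 6288.3 in NTg mice. Every SOD1 G93A mouse was below every NTg mouse. The spread was also wider among the SOD1 G93A mice, at 3556 ± 1085 against 6025 ± 379 (SD, n = 3 each). The log2 change was -1.05 (SE 0.27, limma adjusted p = 0.0334).

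At 120 days probe set 1451152_a_at read 3923.8, 2958.4 and 2542.8 in SOD1 G93A mice, against 5120.5, 5003.6 and 4990.8 in NTg mice. Its log2 change was -0.89 (SE 0.23, limma adjusted p = 0.0354). Probe set 1439036_a_at read 3387.5, 2057.8 and 938.7 in SOD1 G93A mice and 4180.5, 4256.8 and 4513 in NTg mice, a log2 change of -1.30 (SE 0.34, adjusted p = 0.0354). On both, the groups did not overlap, and replicate 3 of the SOD1 G93A mice was the lowest. That mouse was also the lowest on 1418453_a_at, which read 2693.7, 1746.3 and 1247 in SOD1 G93A mice and 3082.8, 2733.3 and 3258.2 in NTg mice. There too the groups were apart, but the log2 change of -0.79 (SE 0.46) did not pass (adjusted p = 0.292). The fifth, 1455949_at, lay near the array medians, with 13.5 to 65.6 over all 12 arrays, and its groups overlapped (log2 change 0.26, adjusted p = 0.631). After the mean of each age was taken out, the first 4 correlated with each other at r = 0.644 to 0.981 over the 12 arrays, and the fifth with them at -0.247 to -0.151. They target 1 gene and are not independent readings of it.

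At 90 days Atp1b1 showed no such gap. Probe set 1423890_x_at read 5376.9, 5327.8 and 4988.8 in SOD1 G93A mice and 5408.2, 5427 and 5437.6 in NTg mice. All SOD1 G93A intensities were the lower ones, by a small margin, and after normalization the groups overlapped (log2 change -0.06, 95% interval -0.64 to 0.51). Probe set 1439036_a_at came nearest to its late-stage difference, with 2349, 1594.5 and 2147.2 in SOD1 G93A mice against 3829.2, 2570.5 and 3003.9 in NTg mice. These groups did not overlap, and the log2 change of -0.61 (SE 0.34) did not pass (adjusted p = 0.982). Probe set 1451152_a_at had a log2 change of -0.16 and 1418453_a_at one of -0.21, with overlapping groups. The difference between the ages was -0.98 log2 units for 1423890_x_at (SE 0.38, unadjusted p = 0.0216, adjusted p = 0.494) and -0.73 for 1451152_a_at (SE 0.33, unadjusted p = 0.0436, adjusted p = 0.529).

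The late-stage calls of Atp1b1 lay close to the threshold. In 24 alternative settings its log2 change stayed negative on all 3 called probe sets, but the call was lost in 9 of 24 for 1423890_x_at, 11 of 24 for 1451152_a_at and 8 of 24 for 1439036_a_at. Without replicate 3 of the late-stage SOD1 G93A mice, all 3 calls were lost, with log2 changes of -0.78, -0.70 and -0.85 (adjusted p 0.105 to 0.109). Without replicate 2 of that group, 1423890_x_at (-1.07, adjusted p = 0.0531) and 1451152_a_at (-0.91, adjusted p = 0.0577) lost it. Leaving out any one of the 3 late-stage NTg mice lost all 3 calls, although the log2 changes were still -0.89 to -1.37 (adjusted p 0.0791 to 0.111). Without replicate 1 of the 90-day NTg mice, 1451152_a_at had an adjusted p of 0.0521. With the values as deposited the 3 adjusted p were 0.0602 to 0.0763. The summed neuron markers were also lower in late-stage SOD1 G93A mice. Their sum was lowest in replicate 3, at 11048, against 15031 and 18013 in the other 2. The astrocyte sum was lowest on that array too, at 17455 against 23451 and 27393, as was the endothelial sum. The motor neuron, microglia and oligodendrocyte sums were not. That array also had the highest median intensity, 55.2, and the lowest mean correlation to its group, 0.835. The part of cell makeup or array quality in the result was not tested.

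**Figure D2:**
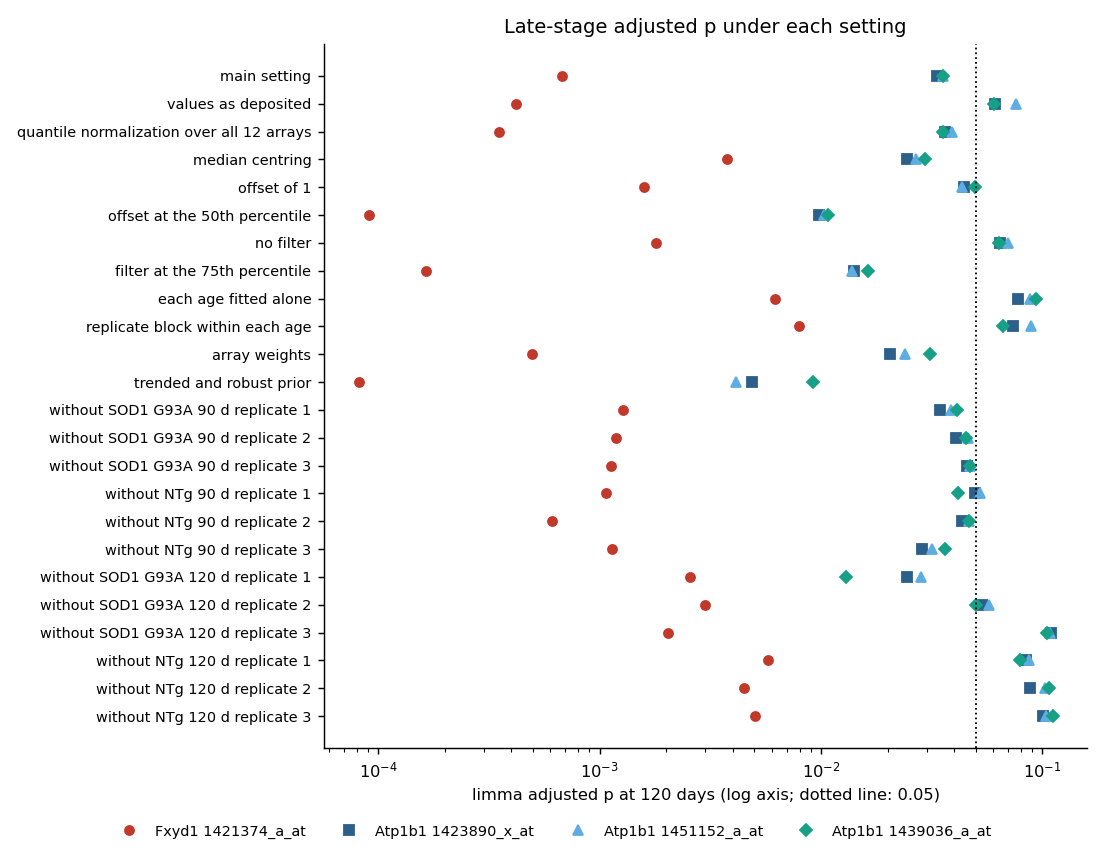
Adjusted p of the late-stage difference (log axis) for Fxyd1 and the 3 called Atp1b1 probe sets, under the main setting and each alternative that gives one per probe set. The dotted line is the threshold of 0.05. Fxyd1 stays left of it throughout (8.17e-05 to 0.00798), while the Atp1b1 points lie on both sides of it, up to 0.111.

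Atp1b2 is the beta subunit of glia. Its probe set 1435148_at read 2240.8, 3509.8 and 950.4 in late-stage SOD1 G93A mice, against 2383.6, 2057.8 and 2239.7 in NTg mice. One SOD1 G93A mouse was above all NTg mice and one far below them, and the means were nearly the same, at 2234 ± 1280 and 2227 ± 163 (SD, n = 3 each). The log2 change was -0.19 (95% interval -0.97 to 0.60, adjusted p = 0.779), an interval that allows a fall of nearly 1 log2 unit. It was 0.23 without replicate 3 of the SOD1 G93A mice, the mouse with the lowest value. At 90 days the values were 3789.5, 3361.1 and 2770.5 in SOD1 G93A mice and 2830.4, 3028.3 and 2599.8 in NTg mice, a log2 change of 0.24 (adjusted p = 1.00) with overlapping groups. The other probe set, 1422009_at, lay at 26.3 to 72.6, near the array medians, and had log2 changes of -0.13 at 90 days and 0.04 at 120 days.

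Atp1b3 encodes the third beta subunit, made in many tissues. It read 395.1, 453.6 and 556.4 in late-stage SOD1 G93A mice and 518.8, 351.4 and 520.5 in NTg mice (log2 change 0.21, 95% interval -0.51 to 0.93, adjusted p = 0.728). At 90 days it read 478.8, 938.3 and 826.4 in SOD1 G93A mice and 786.5, 988.6 and 526.1 in NTg mice (log2 change 0.00, 95% interval -0.72 to 0.72). The groups overlapped at both ages, and the sign at 120 days turned with median centring of the arrays, to -0.37.

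Fxyd1, or phospholemman, is a substrate of protein kinases A and C that holds back the pump until it is phosphorylated, best known from heart and skeletal muscle. Its 1 probe set read 372.6, 356.5 and 389.2 in late-stage SOD1 G93A mice, against 66.2, 85 and 82.6 in NTg mice. The lowest SOD1 G93A value was far above the highest NTg value, and both groups were tight, at 373 ± 16.4 and 77.9 ± 10.2 (SD, n = 3 each). The log2 change was 2.19 (SE 0.28, 95% interval 1.60 to 2.78, limma adjusted p = 0.00068). It was called in all 24 alternatives, with log2 changes of 1.78 to 2.33 and adjusted p of 8.17e-05 to 0.00798.

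At 90 days Fxyd1 read 566, 623.3 and 423.1 in SOD1 G93A mice and 385.3, 215.8 and 304.6 in NTg mice. Every SOD1 G93A mouse was again above every NTg mouse, as for 5.74% of all probe sets. The log2 change of 0.84 (SE 0.28, 95% interval 0.24 to 1.43) did not pass (unadjusted p = 0.00934, adjusted p = 0.572). The late-stage difference exceeded it by 1.36 log2 units (SE 0.39, unadjusted p = 0.00388), which did not pass over all probe sets (adjusted p = 0.401). By mean intensity the 4 groups ran, high to low, 90-day SOD1 G93A (537), late-stage SOD1 G93A (373), 90-day NTg (302) and late-stage NTg (77.9). Only the middle pair overlapped, since the highest 90-day NTg mouse at 385.3 lay within the late-stage SOD1 G93A range.

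Fxyd1 was also compared between the ages. This comparison was added after the values were seen and used quantile normalization over all 12 arrays. Fxyd1 fell by 1.81 log2 units in NTg mice at 120 days relative to 90 days (SE 0.27, limma adjusted p = 0.00581). In SOD1 G93A mice the same difference was -0.29 (adjusted p = 0.536). Gfap and the summed astrocyte and microglia markers were also lower by intensity on the late-stage NTg arrays, without a test. Not all single markers were. In NTg mice Fgfr3 read 577.7 to 737.3 at 120 days against 508.6 to 780.9 at 90 days. Cx3cr1 of microglia read 70.5 to 137.3 against 75.1 to 146.3. Gfap, which encodes a filament protein of reactive astrocytes, read 102.3 to 231.4 in NTg mice at 120 days, against 784.6 to 3302.8 at 90 days. The mean sum of the astrocyte markers in NTg mice was 16709 at 120 days against 25893 at 90 days, and that of the microglia markers 2307 against 4749. Their part in the Fxyd1 difference between the ages was not tested. Between these ages 7% of all probe sets were called in SOD1 G93A mice, 3.06% higher and 3.94% lower, and 3.62% in NTg mice, 1.14% higher and 2.48% lower. The mice of the 2 ages are different animals, and age cannot be told apart from anything else that differed between the 2 sets of arrays. The Gapdh ratios given above ran higher at 120 days in both genotypes, with overlap. Between the genotypes Gfap also rose at 120 days, with intensities of 3253.3 to 5365.1 in SOD1 G93A and 102.3 to 231.4 in NTg mice (log2 change 4.79, adjusted p = 0.000123). The microglia sum, given above, was also higher on every late-stage SOD1 G93A array, and the part of either cell type in the Fxyd1 difference between the genotypes was not tested.

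Fxyd7 is a regulator found almost only in brain, mainly in neurons. It read 107.9, 106.8 and 90.8 in SOD1 G93A mice at 90 days, against 131.9, 282.5 and 335.1 in NTg mice. The groups did not overlap, as for 5.56% of all probe sets in this direction, but the NTg values were widely spread (102 ± 9.57 against 250 ± 105, SD, n = 3 each). The log2 change was -1.16 (SE 0.40, 95% interval -2.02 to -0.31), with an unadjusted p of 0.0114 and an adjusted p of 0.595. By the threshold of the study, a 2-fold change and an unadjusted p of 0.05, it was the 1 member called at 90 days, where 1.77% of all probe sets were. That threshold was applied here to limma's p, where the study applied it to other array values (PLIER). At 120 days Fxyd7 read 40.8, 42.6 and 22.5 in SOD1 G93A mice and 33.9, 21.7 and 59.8 in NTg mice. These groups overlapped (log2 change -0.45, adjusted p = 0.506).

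In the added comparison of ages, Fxyd7 fell in both genotypes at 120 days relative to 90 days, with log2 changes of -1.83 in SOD1 G93A mice (SE 0.40, limma adjusted p = 0.02) and -2.45 in NTg mice (SE 0.40, adjusted p = 0.00881). No other member was called between the ages. The 4 brighter Atp1b1 probe sets were higher on every NTg array at 120 days than at 90 days, without passing (log2 changes 0.37 to 1.17, adjusted p 0.118 to 0.486). In SOD1 G93A mice the same 4 differed by -0.55 to 0.60 log2 units.

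Fxyd6, or phosphohippolin, is a regulator of brain and inner ear. It lay near or below the array medians, with 9.6, 56.5 and 13.9 in SOD1 G93A and 39.8, 18.3 and 40.5 in NTg mice at 90 days. At 120 days it read 18.6, 29 and 71.8 in SOD1 G93A and 34.2, 22.1 and 20.1 in NTg mice. The values scattered within each group, and the log2 changes were -0.52 at 90 days (adjusted p = 1.00) and -0.00 at 120 days (adjusted p = 0.996). Leaving out each array in turn moved the 90-day value over -1.09 to -0.12, and it was -1.09 without replicate 2 of the 90-day SOD1 G93A mice (adjusted p = 0.786). The late-stage 95% interval ran over -0.997 to 0.988, so a change of nearly 2-fold either way was not excluded.

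**Figure D3:**
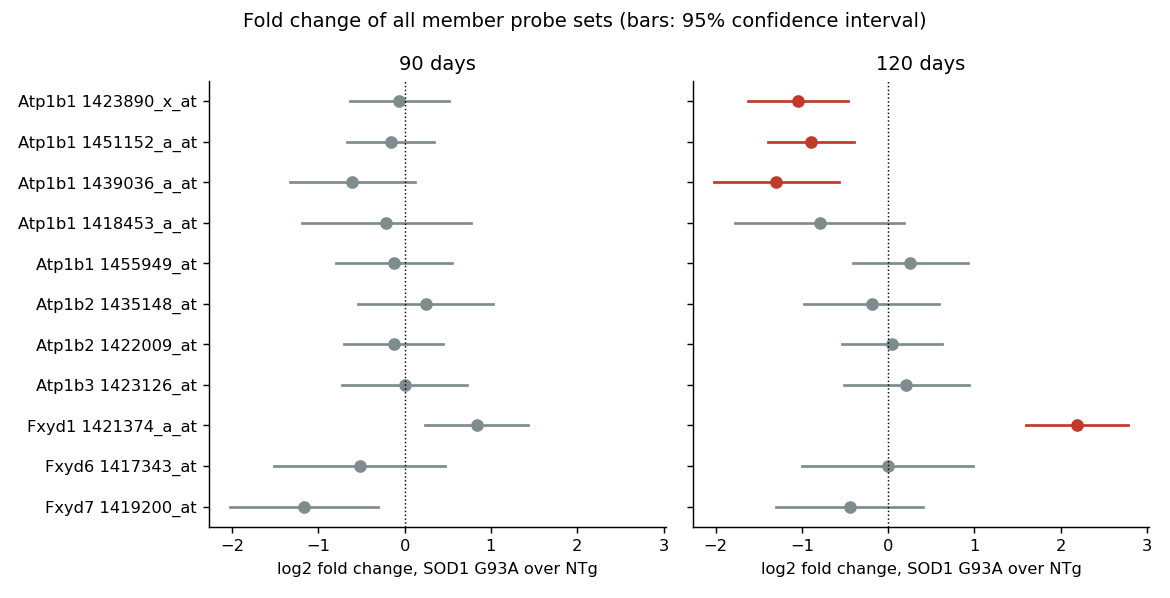
Log2 change of SOD1 G93A over NTg for all 11 member probe sets at 90 days (left) and 120 days (right), with 95% confidence intervals from limma. Red marks an adjusted p under 0.05, which no probe set reached at 90 days and 4 reached at 120 days, 3 of Atp1b1 below 0 and Fxyd1 above 0.

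Genes that share the pump's membrane complexes or live off its gradient were read from lists chosen with earlier results of these data known, each gene by its brightest probe set. Of 5 other genes of the pump family, Fxyd5 was tested and the rest were too dim. Fxyd5, an adhesion regulator, lay at 65.2 to 108.1 in late-stage SOD1 G93A and 42.7 to 44 in NTg mice (log2 change 0.63, adjusted p = 0.151). Of 16 partners, anchors and regulators 15 were tested, and at 120 days 1 rose, 1 fell and 13 did not pass, with a median log2 change of -0.42 against -0.07 over all probe sets. Over all probe sets 3.6% rose and 3.86% fell at this age. None passed at 90 days. Sptan1, the alpha spectrin of the membrane skeleton to which ankyrins tie the pump, fell by 1.06 log2 units (SE 0.23, adjusted p = 0.0155), with 2371.7 to 3113.8 in SOD1 G93A and 4222.8 to 5153.7 in NTg mice. Nkain1, a membrane protein that binds the beta subunit Atp1b1, rose by 0.93 (SE 0.26, adjusted p = 0.0461), with 1004.3 to 1505.1 in SOD1 G93A and 595.6 to 834.3 in NTg mice. The ankyrins Ank3 (log2 change -1.19, adjusted p = 0.0908) and Ank1 (-0.93, adjusted p = 0.0901) and the kinase Prkce (-1.03, adjusted p = 0.0898) did not pass. They are named for their small p, and for all 3 the SOD1 G93A mice lay below the NTg mice, as for 18.5% of all probe sets.

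Of 15 carriers and exchangers that use the sodium gradient 12 were tested, and at 120 days 2 fell, none rose and 10 did not pass, where 7.45% of all probe sets were called and 3.86% fell. The median log2 change was -0.12, near the -0.07 of all probe sets. None passed at 90 days. The sodium-calcium exchanger Slc8a1 fell by 1.63 log2 units (SE 0.42, adjusted p = 0.033), with 114.2 to 324.6 in SOD1 G93A and 624.6 to 846.5 in NTg mice. The sodium-calcium-potassium exchanger Slc24a2, known mainly from neurons, fell by 1.60 log2 units (SE 0.39, adjusted p = 0.0281), with 138.1 to 477.9 in SOD1 G93A and 866.1 to 1211 in NTg mice. The phosphate carrier Slc20a1 (-0.84, adjusted p = 0.0719) and the bicarbonate carrier Slc4a4 (0.85, adjusted p = 0.107) did not pass. Of the astrocyte glutamate carriers, Slc1a2 had a log2 change of 0.08 (adjusted p = 0.866) and Slc1a3 one of 0.30 (adjusted p = 0.633). Slc1a2 read 3048 to 4071.4 in late-stage SOD1 G93A and 2418.7 to 3299 in NTg mice. The probe set of Slc1a3 was far dimmer, at 80.6 to 157.8 and 55.4 to 96.

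**Figure D4:**
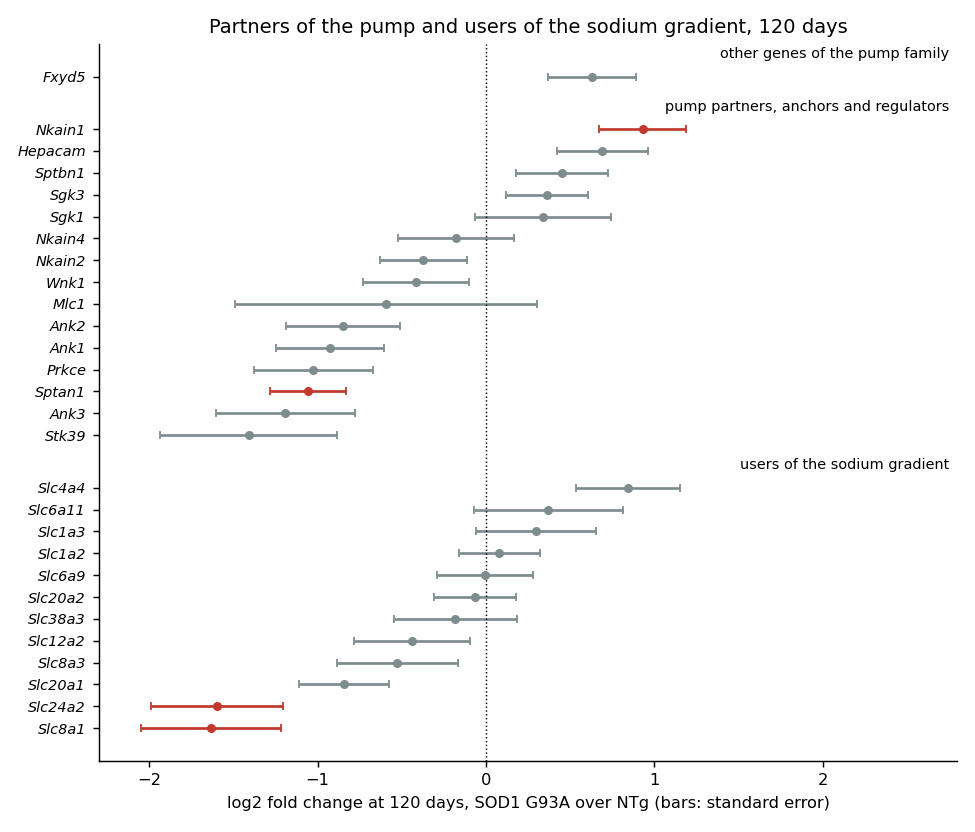
Late-stage log2 change of SOD1 G93A over NTg, with its SE, for the tested genes of 3 lists: other genes of the pump family, partners and regulators of the pump, and users of the sodium gradient. Red marks an adjusted p under 0.05, which Nkain1 reached above 0 and Sptan1, Slc24a2 and Slc8a1 below 0.

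The genes whose signal followed each member most closely were found by Pearson's r over the 12 arrays, after the mean of each age was taken out, and are given with no test, since genotype, array quality and cell makeup are shared by all points. Atp1b1 was followed most closely by Nap1l5 (r = 0.989), Gmps (0.977) and Sri (0.975), whose late-stage log2 changes were -1.32, -1.55 and -1.47. Fxyd1 was followed by Gfap (0.973), Rps2 (0.972) and Rras (0.970), with late-stage log2 changes of 3.93, 1.21 and 0.76. The Gfap value is from another probe set than the one above. For Fxyd7 the closest were Prss12 (0.924), Tns1 (0.914) and Tmppe (0.910). Atp1b2 went with Ggnbp2, Dcaf15 and Ptdss1 (0.946 to 0.985), Atp1b3 with Qk, Hnrnpm and Ankrd12 (0.919 to 0.935), and Fxyd6 with Wdhd1, Ptpa and Sebox (0.888 to 0.941). No gene was among the closest 3 of more than 1 member.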

How the data were processed

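RNA of laser-captured cells had been amplified linearly in 2 rounds and hybridized to Affymetrix mouse GeneChips, 1 per mouse and 12 in all. The authors deposited linear intensities of 45101 probe sets, made with MAS5 per the labels and scaled to a trimmed mean of 100. The MAS5 version is not given in the sources used here. The study's methods describe PLIER values and ALDH1L1 staining, where the labels name MAS5 and toluidine blue. The study describes the captured material as mixed cells, astrocytes being a significant part. Its supplement states that capture took out the oligodendrocyte contamination, while markers of microglia and neurons remained. On these arrays the 7 oligodendrocyte markers summed to between 23318 and 60875. The catalytic alpha subunits are not reported here.

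Before log2, 7 (the 20th percentile over all arrays) was added, and arrays were quantile normalized within each age. The 64 control probe sets were left out. The 26132 probe sets above their array's median on at least 3 arrays were fitted with 4 group means in limma 3.58.1 (R 4.3.3, 8 residual degrees of freedom, Benjamini-Hochberg threshold 0.05). Of all probe sets 34958 had 1 symbol, 932 several and 9211 none. All member probe sets are named. Of each further list, called genes and up to 4 with the smallest late-stage p are named, and other names were chosen after their values were seen. The 6 members and all lists were chosen with earlier results of these data known. An exact permutation test of 3 against 3 cannot go below p = 0.1 and was not used. The steps were run on simulated data with independent noise for each probe set. These data held no array-wide differences such as those among the late-stage SOD1 G93A arrays. Promoter windows came from RefSeq. Figures were drawn with matplotlib 3.10.9.

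The alternatives tried were 3 other normalizations (none, quantile over 12 arrays, median centring), 2 other offsets, 2 other filters, each age alone, array weights, a block on the replicate number, a prior with trend and robust fit, the threshold of the study, gene means and leaving out each array.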

Additional observations from a re-analysis of the deposited data

How the results depend on the processing

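The members called at 120 days were 4. They were 1, Fxyd1, with the values as deposited, with no filter, with each age fitted alone and with probe sets averaged by gene. Leaving out each array gave 1 to 4. Nothing in the labels pairs the mice of the same number within an age. Correlations of same-numbered deviations were -0.28 to 0.275, which cannot settle whether the mice were paired. With the replicate block 1 was called. With a 2-fold change and unadjusted p of 0.05, 3 were called (Fxyd1 and 2 probe sets of Atp1b1), where 12.7% of all probe sets were. At 90 days that threshold called 1 member (Fxyd7). No member was called for the difference between the ages under any alternative run. Of 522 single values under alternatives, 465 kept direction and side of the threshold, 28 lost the call (all of Atp1b1), 1 gained it and 28 changed sign, none of them called.

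Signs turned only for values that were not called. With the values as deposited, Atp1b3 was -0.046 at 90 days and Fxyd6 0.39 at 120 days. With median centring, Atp1b3 was -0.11 at 90 days and -0.37 at 120 days, and Atp1b2 1422009_at was -0.010 at 120 days. Fxyd6 was 0.0085 at 120 days with quantile normalization over 12 arrays and 0.019 with the offset at the 50th percentile. With array weights, Atp1b2 was 0.058 (1422009_at, 90 days), 0.092 (1435148_at, 120 days) and -0.11 (1422009_at, 120 days). Leaving out each array at 90 days, Atp1b1 spanned -0.23 to 0.058 (1423890_x_at), -0.73 to 0.19 (1418453_a_at) and -0.32 to 0.12 (1455949_at), Atp1b2 1422009_at -0.27 to 0.11 and Atp1b3 -0.22 to 0.30. At 120 days, Atp1b2 spanned -0.62 to 0.23 (1435148_at) and -0.083 to 0.19 (1422009_at), and Fxyd6 -0.38 to 0.28.

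Over all probe sets 1948 were called at 120 days, 48.3% of them higher. Median centring called 3500, the offset at the 50th percentile 2953, no filter 1244 of 45037 tested (57.2% of these calls higher), each age alone 759 (61.4% higher), the replicate block 1063, the 2-fold threshold 3319, and leaving out each array 475 to 2432 (40% to 77.1% higher). For the difference between the ages 0 were called, but 20 with the trended and robust prior, 11 without replicate 2 of the 90-day NTg mice and 3 with the offset at the 50th percentile. At 90 days 36 were called, and 12 to 131 in the alternatives with an adjusted p. Present calls were not used here, so it was not checked whether probe sets near the array medians (Fxyd6, Atp1b1 1455949_at, Atp1b2 1422009_at) exceeded background. The filter at the 75th percentile left these 3 with no value.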

Other observations

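Fxyd1 and Fxyd7 are neighbours on chromosome 7, in the order Fxyd5, Fxyd7, Fxyd1, Lgi4 and Fxyd3 in the RefSeq table, and were read beside the genes within 3 steps of each member after their values were seen. Lgi4, next to Fxyd1 and a secreted glial protein that peripheral nerve needs for myelination, rose in late-stage SOD1 G93A mice with a log2 change of 1.42 (SE 0.32, limma adjusted p = 0.0205), and had 0.84 at 90 days (adjusted p = 0.749). On the other side of Fxyd1, Fxyd7 did not pass at either age, with log2 changes of -1.16 at 90 days and -0.45 at 120 days, and Fxyd5 beyond it had 0.63 at 120 days (adjusted p = 0.151). None of the tested neighbours of Atp1b1 on chromosome 1 passed at 120 days, among them Nme7 next to it (-0.61, adjusted p = 0.344). Neither did those of Atp1b2, Atp1b3 or Fxyd6.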
